A study of Mus musculus with 98 samples.

Results

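Mouse primary hippocampal neurons labelled as stimulated were compared on day 21 of culture between a virus that carries Acss2 (upACSS2) and an empty vector, both in neurons that had also received hAD-tau. The comparison used 6 of the 98 samples of the series, 3 with upACSS2 and 3 with vector, chosen by the sample labels alone. Per the labels' protocols, all cultures took up a PhP.eB virus on day 5, were left with it for 48 hours, were washed with PBS on day 7 and were then given hAD-tau or PBS. The agent and duration of the stimulation, the source of hAD-tau, the promoter that drives Acss2 in the virus and the strain of these cultures are not given in the sources used here. The same virus contrast in stimulated neurons given PBS (3 and 3 libraries) and in unstimulated tau neurons of day 21 (3 and 3 libraries, in another count table) served for comparison. The labels do not say whether replicates are separate cultures, so p-values measure only the spread between these libraries, which may be technical.

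ACSS2 is the enzyme of cytosol and nucleus that makes acetyl-CoA from acetate. Acetyl-CoA is the acetyl donor for histone acetylation and the carbon source for fatty acid and sterol synthesis. In hippocampal neurons ACSS2 is known to bind chromatin near genes of neuronal activity and to take part in long-term memory, and misfolded tau taken up by neurons can seed aggregates of their own tau.

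Total counts ran from 18804544 to 25551756 in the 3 tau vector libraries and from 27540501 to 29032009 in the 3 tau upACSS2 libraries, so depth did not overlap between the groups. Reads of the ribosomal precursor Rn45s made up 0.236% to 0.329% with vector and 0.384% to 0.545% with upACSS2, again without overlap. On the first principal component of the 12 stimulated libraries, computed on 2000 genes and holding 34.8% of their variance, the tau vector libraries stood apart from the other 9. Their scores were 21.57, 13.75 and 45.25, replicate 3 being the farthest, and the other 9 lay between -21.86 and -1.77. The parts of depth, of Rn45s and of these libraries in the results that follow were not tested beyond the alternatives given.

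The label was checked against defining markers. Map2, a dendritic microtubule protein, was at 1234, 1371 and 1316 CPM (counts per library size after TMM scaling) with vector and 1775, 1484 and 1527 CPM with upACSS2, and Camk2a, a kinase of excitatory neurons, lay between 1460 and 2264 CPM over the 6 libraries. Astrocyte markers were abundant as well. Gfap, the intermediate filament of astrocytes, was at 1971, 1763 and 672.3 CPM with vector and at 3769, 3838 and 3689 CPM with upACSS2. Of 16 microglial markers only 5 were high enough to be tested, and their sum was 25.7 to 32.3 CPM over the 6 libraries. The 16 markers of the oligodendrocyte lineage summed to 1295 to 3178 CPM with vector and 2145 to 2747 CPM with upACSS2. The libraries thus came from neurons with astrocytes and with cells that express oligodendrocyte lineage markers. In bulk RNA, fewer cells of a type and less RNA per cell cannot be told apart. The immediate early gene Fos was at 1341 to 1590 CPM in these 6 libraries and at 21.3 to 59.0 CPM in the 6 unstimulated tau libraries, a difference between separate tables that was not tested.

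Acss2 (GRCm38 chromosome 2, 155518043 to 155562743, plus strand), the gene that the virus carries, was at 52.3, 40.1 and 55.1 CPM with vector and at 3709, 4033 and 5462 CPM with upACSS2. The means were 49.2 ± 7.98 and 4401 ± 933 CPM (SD, n = 3 each), an 89.5-fold difference without overlap, and the exact two-sided permutation p was 0.1, the smallest that 3 against 3 allows. The log2 fold change was 6.48 ± 0.25 (SE) with an adjusted p of 5.8e-08 (edgeR's quasi-likelihood test with Benjamini-Hochberg adjustment). In PBS neurons the upACSS2 libraries lay at 2745, 2079 and 3485 CPM, all below those in tau. This difference between tau and PBS did not pass over all genes (interaction log2 0.79 ± 0.28, adjusted p 0.263, and 0.0474 with the replicate block, edgeR). Reads of the gene in the virus and of the cells' own Acss2 cannot be told apart in the counts.

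In tau neurons upACSS2 went with higher transcripts of 3 GABAergic markers (Nos1, Sst and Gad2), of 2 replication-dependent histone genes (H2bc4 and H2bc6) and of the activity-induced kinase Plk2, and with lower transcripts of the stress factor Ddit3, the noncoding RNA Snhg11 and the syntaxin-binding protein Stxbp2. At an adjusted p under 0.05, 140 of 14939 genes tested were called (0.937%, edgeR), 59 higher with upACSS2 (0.395%) and 81 lower (0.542%). Same-numbered vector and upACSS2 libraries deviated together in the tau groups, and with the replicate number as a block 399 genes were called (2.67%), 220 higher (1.47%) and 179 lower (1.2%), among them all 140. Scaled by total counts alone, 58 genes were higher and 193 lower, with the median of all genes shifted to -0.06 on the log2 scale from 0.00. Apart from Acss2, the 58 higher genes had a median log2 fold change of 0.81 and the 81 lower genes one of -0.86, and 22 and 32 of them changed at least 2-fold. The 3 and 3 values of all 139 did not overlap, which holds for 12.4% of all genes tested in the higher direction and 12.3% in the lower.

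The count of calls depended on single libraries. Without tau upACSS2 replicate 1, 2 or 3 it was 1, 23 or 3, and without tau vector replicate 1, 2 or 3 it was 4, 460 or 1. Acss2 was called in all 6 of these fits, Nos1 in 4 and every other gene in fewer. Fitted on the 6 tau libraries alone, 21 genes were called, and DESeq2 called 961. Below, a gene that rose or fell is one past the threshold with all 12 libraries and no block, and of these only Acss2 passed in all of these fits.

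**Figure D1:**
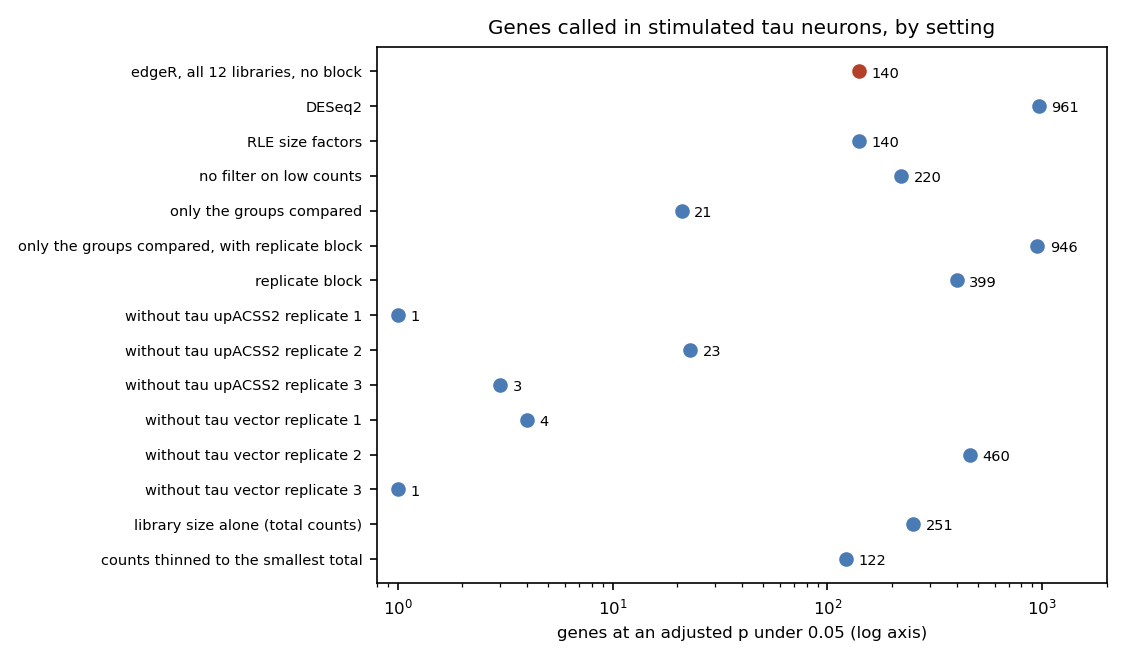
Number of genes at an adjusted p under 0.05 for upACSS2 against vector in stimulated tau neurons (x axis, log scale) under each analysis setting (y axis). The fit with all 12 libraries and no block is red. The counts run from 1, without tau upACSS2 replicate 1 or tau vector replicate 3, to 961 with DESeq2.

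**Figure D2:**
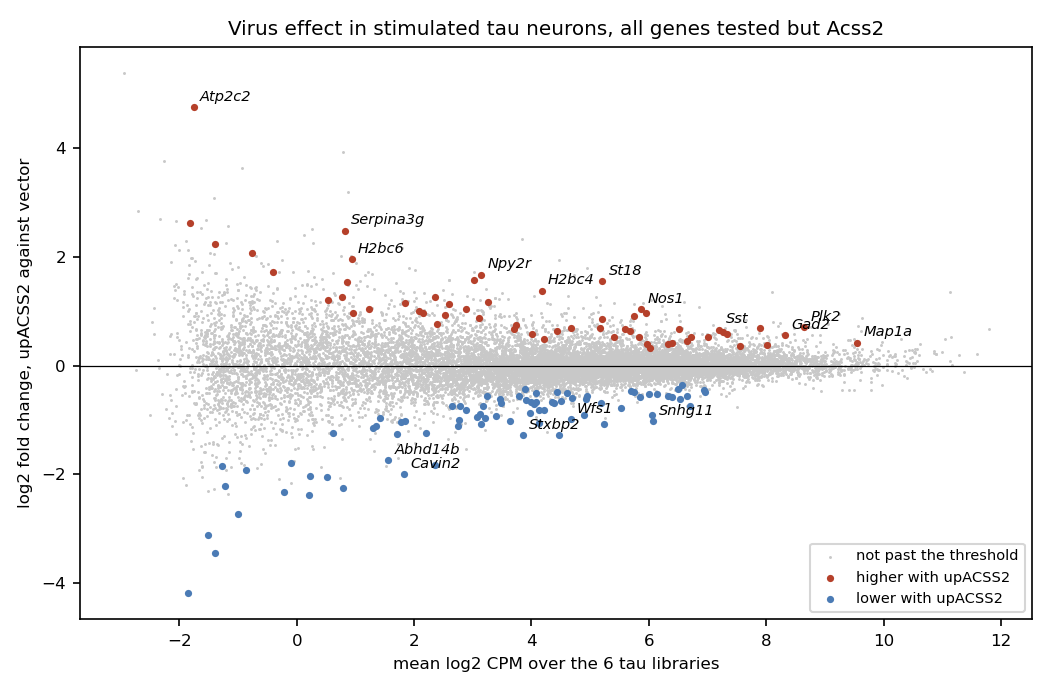
Log2 fold change of upACSS2 against vector (y axis) by mean log2 CPM over the 6 tau libraries (x axis) for each gene tested except Acss2. Red points are the 58 genes called higher, blue points the 81 called lower and grey points the rest. The called genes had medians of 0.81 and -0.86.

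Promoters are shown for genes the results turn on, Sst and Plk2 because both rose and hold the same motif, H2bc6 as a histone gene that rose and Ddit3 as the gene that fell among stress factors. Each line gives the 250 bases before the RefSeq start, 5′ to 3′ on the gene's strand, build GRCm38.p6. Capitals mark the palindromic cAMP response element TGACGTCA in Sst and Plk2, the octamer ATTTGCAT in H2bc6 and the AP-1 motif TGACTCA in Ddit3. Sst is at chr16:23890845-23891094 (minus strand), Plk2 at chr13:110394794-110395043 (plus), H2bc6 at chr13:23585971-23586220 (minus) and Ddit3 at chr10:127290543-127290792 (plus).
Sst: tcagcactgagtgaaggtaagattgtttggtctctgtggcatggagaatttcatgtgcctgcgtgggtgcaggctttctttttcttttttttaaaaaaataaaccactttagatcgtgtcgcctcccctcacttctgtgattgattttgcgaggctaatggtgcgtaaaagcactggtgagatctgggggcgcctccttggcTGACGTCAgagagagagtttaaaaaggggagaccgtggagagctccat
Plk2: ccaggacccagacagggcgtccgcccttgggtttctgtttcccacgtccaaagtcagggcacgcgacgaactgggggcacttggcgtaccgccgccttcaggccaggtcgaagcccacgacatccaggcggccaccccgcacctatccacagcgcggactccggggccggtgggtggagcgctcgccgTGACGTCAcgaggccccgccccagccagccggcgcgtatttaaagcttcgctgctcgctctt
H2bc6: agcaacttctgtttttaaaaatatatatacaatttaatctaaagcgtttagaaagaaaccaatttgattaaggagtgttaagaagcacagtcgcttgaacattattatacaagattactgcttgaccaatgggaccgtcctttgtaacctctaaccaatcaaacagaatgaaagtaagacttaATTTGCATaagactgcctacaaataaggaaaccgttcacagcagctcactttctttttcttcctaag
Ddit3: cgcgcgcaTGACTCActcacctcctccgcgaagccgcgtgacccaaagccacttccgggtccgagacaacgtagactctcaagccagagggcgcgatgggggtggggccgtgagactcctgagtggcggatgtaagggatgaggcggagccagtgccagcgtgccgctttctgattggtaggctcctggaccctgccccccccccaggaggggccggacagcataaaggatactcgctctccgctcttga

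Motifs were searched on both strands in the same window. TGACGTCA, which reads the same on both strands, was in 2 of 46 higher genes with a promoter entry, Sst and Plk2 (4.35%), in 1 of 59 lower genes, Atg16l2 (1.69%), in 2.99% of the 11771 tested genes with an entry and in 1.77% of all 27025 genes with one. ATTTGCAT or its reverse ATGCAAAT was in 4 of the 46 higher genes, Aldh1a1, H2bc6, Shroom3 and Tent5a (8.7%), in 0 of the 59 lower genes, in 1.5% of the tested genes and in 1.81% of all. TGACTCA or its reverse TGAGTCA was in 2 of 46 higher genes (4.35%), 2 of 59 lower genes (Ddit3 and Sdcbp2, 3.39%), 3.84% of the tested genes and 5.16% of all. Other motifs searched were CACGTG, in 8.7% of the higher, 10.2% of the lower and 9.68% of the tested genes, and CCAAT, in 50%, 42.4% and 40.2%. TGATGCAA was in 0%, 3.39% and 0.646%. These matches are a description of the letters, H2bc6 has another RefSeq start whose window holds no octamer, and the window of Sst precedes a start inside the RefSeq gene span.

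Of 21 markers of GABAergic neurons, which release the inhibitory transmitter GABA, 3 rose and none fell, Nos1, Sst and Gad2, against 0.395% of all genes called higher. The median log2 fold change of the list was 0.37, and 20 of 21 were above 0 (50.2% of all genes tested were). Higher without overlap were 12 of 21 (12.4% of all genes tested were). Their summed level was 2371 to 2647 CPM with vector and 2928 to 3467 CPM with upACSS2. Without tau upACSS2 replicate 1 or tau vector replicate 3 none of the 21 passed, and the median stayed between 0.31 and 0.43 over the 6 fits that leave out 1 library.

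Nos1 (chromosome 5, 117866839 to 117958840, plus strand) encodes neuronal nitric oxide synthase, made by a class of interneurons. It was at 41.6, 42.6 and 38.0 CPM with vector and at 87.4, 79.9 and 83.3 CPM with upACSS2. All 3 upACSS2 libraries lay above all 3 vector libraries, with little spread within either group. The log2 fold change was 1.04 ± 0.12 (SE, adjusted p 0.0085, edgeR), after Acss2 the smallest p in the comparison.

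Sst, the peptide somatostatin of an interneuron class, was at 132, 116 and 105 CPM with vector and at 158, 179 and 221 CPM with upACSS2 (log2 0.66 ± 0.13, adjusted p 0.0383, edgeR). Gad2, a GABA-synthesizing enzyme, was at 265, 269 and 263 CPM with vector and at 402, 327 and 447 CPM with upACSS2 (log2 0.56 ± 0.11, adjusted p 0.0383, edgeR). The vector libraries of Gad2 lay close together and the upACSS2 libraries were spread more widely, without overlap. Pvalb, the calcium-binding protein of fast-spiking interneurons, was at 0.95 to 1.79 CPM with vector and 2.54 to 4.90 CPM with upACSS2 and passed with the block alone (adjusted p 0.0695 without it and 0.0103 with it, edgeR). The remaining enzyme for GABA, Gad1, had a log2 fold change of 0.47 ± 0.14 and an adjusted p of 0.11 (edgeR).

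Other neuronal genes moved in both directions. Of 14 markers of excitatory neurons only Wfs1 passed, and it fell (0.542% of all genes tested were called lower). Of the 14, 10 were above 0 (50.2% of all genes tested were), with a median log2 fold change of 0.09. Wfs1, a membrane protein of the endoplasmic reticulum enriched in CA1 neurons, was at 33.6, 35.3 and 39.1 CPM with vector and 16.7, 22.5 and 15.5 CPM with upACSS2 (log2 -0.98 ± 0.19, adjusted p 0.0368, edgeR). The summed excitatory list overlapped, at 3962 to 5457 and 4880 to 5395 CPM. Of 14 pan-neuronal genes only Nefh, the heavy neurofilament, passed (0.395% of all genes tested were called higher). It rose from 40.9 ± 2.11 to 63.5 ± 2.78 CPM (SD, n = 3 each). The medium and light neurofilaments Nefm and Nefl had log2 fold changes of 0.80 and 0.48 and passed with the block alone (adjusted p 0.0103 and 0.0282, edgeR).

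The lists of receptors and channels gave few calls. Of 27 genes tested in the list of neurotrophins and neuropeptides, 2 rose (0.395% of all genes tested were called higher). They were Sst and Nmbr, the neuromedin B receptor. Nmbr was at 6.21, 5.94 and 7.15 CPM with vector and at 13.7, 10.3 and 19.7 CPM with upACSS2. Npy2r, a receptor for neuropeptide Y, was at 5.58, 3.71 and 5.55 CPM with vector and at 16.6, 16.5 and 14.1 CPM with upACSS2 (log2 1.67 ± 0.28, adjusted p 0.0294, edgeR). None of 24 glutamate receptor genes, 12 GABA-A receptor genes, 30 presynaptic, 27 postsynaptic and 44 voltage-gated and potassium channel genes passed. At an unadjusted p under 0.05 (edgeR), 5, 3, 5, 6 and 5 of them were higher and 0, 0, 1, 0 and 3 lower (10.6% of all genes higher, 9.81% lower). Off these lists, the synaptic genes Cacng7, Neto1, Shisa9, Doc2a and Syt9 were among the called genes.

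St18, a zinc finger transcription factor, was at 24.4, 23.9 and 17.2 CPM with vector and at 71.5, 47.4 and 74.2 CPM with upACSS2, a log2 fold change of 1.56 ± 0.22 (adjusted p 0.0192, edgeR). The lowest upACSS2 library, replicate 2, was still above all vector libraries. Vegfd, a growth factor of lymphatic and blood vessels, rose from 4.84 ± 1.57 to 14.3 ± 5.07 CPM. Shroom3, an actin-binding protein of apical constriction, rose from 4.06 to 8.91 CPM, and Tlr1, a receptor for bacterial lipoproteins, from 2.36 to 5.22 CPM.

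**Figure D3:**
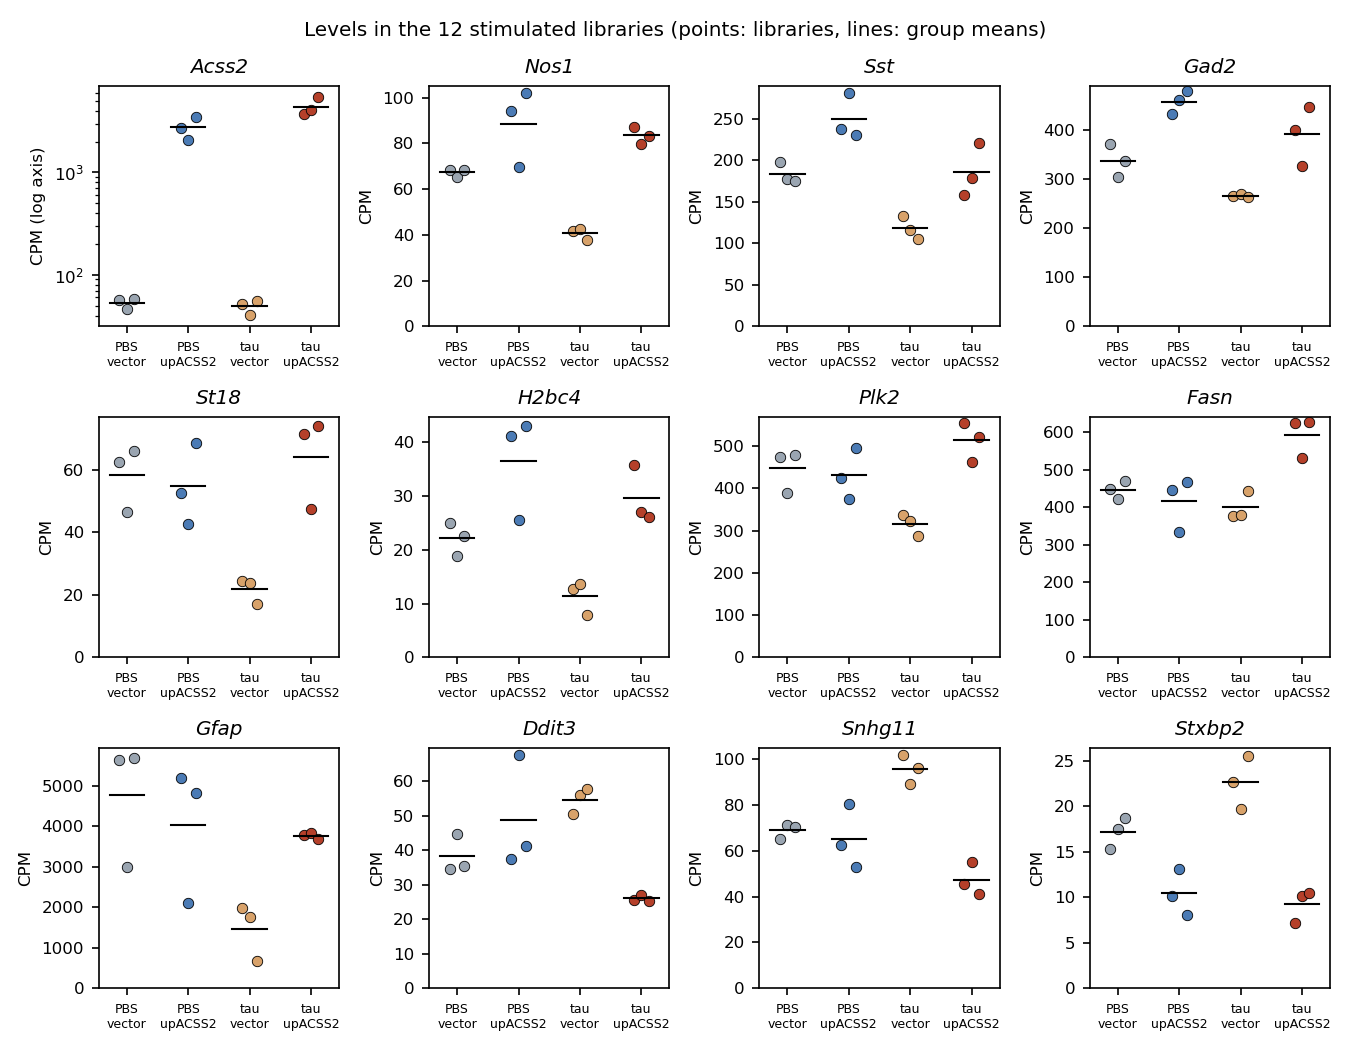
CPM (y axes, from 0, log axis for Acss2) of 12 genes in the 12 stimulated libraries, in 4 groups of 3 (x axes). Points are libraries and lines group means. For St18, H2bc4, Nos1 and Plk2 the tau vector libraries lie below the other 3 groups, and for Snhg11 above them.

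Of 25 transcription factors induced by activity none passed, with a median log2 fold change of -0.04. At an unadjusted p under 0.05, 5 were higher and 4 lower (10.6% and 9.81% of all genes tested). Fos was at 1590, 1380 and 1352 CPM with vector and at 1463, 1392 and 1341 CPM with upACSS2, and Npas4, a neuron-specific factor of the same wave, at 869.6, 737.0 and 949.0 against 741.1, 660.6 and 712.7 CPM. Fos overlapped, and for Npas4 only upACSS2 replicate 1 reached the range of the vector libraries. The closest to the threshold were Fosl2, higher at 462, 405 and 444 against 296, 311 and 265 CPM, and Klf10, lower at 40.3, 44.8 and 41.6 against 57.4, 57.9 and 50.5 CPM (adjusted p 0.0551 and 0.0569, and 0.0329 and 0.0373 with the block, edgeR).

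Of 33 effector genes induced by activity 1 rose and none fell (0.395% and 0.542% of all genes tested were called higher and lower). The gene that rose was the polo-like kinase Plk2, which acts at synapses. Plk2 was at 336, 322 and 288 CPM with vector and at 556, 463 and 523 CPM with upACSS2 (log2 0.70 ± 0.12, adjusted p 0.0304, edgeR). Of the 33, 26 were above 0 (50.2% of all genes tested were), with a median of 0.24. At an unadjusted p under 0.05 (edgeR), 8 were higher and 1 lower (10.6% and 9.81% of all genes tested). Homer1, a scaffold of the postsynaptic density, had a log2 fold change of 0.58 (adjusted p 0.0551, and 0.0309 with the block, edgeR). Arc, the cytoskeletal immediate early gene, went the other way, at 1333, 1064 and 1034 CPM with vector and 901.1, 996.8 and 768.2 CPM with upACSS2, without passing (log2 -0.36, adjusted p 0.22, edgeR).

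Replication-dependent histone genes had the highest median of the gene lists examined. They are normally transcribed in S phase into messages without a poly(A) tail. Of 62 listed, 13 were tested, and 2 rose, H2bc4 and H2bc6 (0.395% of all genes tested were called higher). None of the 13 fell. The median log2 fold change was 1.01, and 12 of 13 were above 0 (50.2% of all genes tested were). Higher without overlap were 8 of the 13 (12.4% of all genes tested were). H2bc4 (chromosome 13, 23684199 to 23692480) was at 12.7, 13.5 and 7.84 CPM with vector and at 35.7, 26.96 and 26.1 CPM with upACSS2 (log2 1.38 ± 0.23, adjusted p 0.0304, edgeR). H2bc6 was at 1.31, 0.83 and 0.73 CPM with vector and at 5.09, 3.03 and 2.96 CPM with upACSS2 (log2 1.96 ± 0.36, adjusted p 0.0331, edgeR).

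The linker histone gene H1f2 was at 20.9, 15.4 and 12.2 CPM with vector and 44.8, 30.9 and 41.1 CPM with upACSS2 and passed with the block alone (adjusted p 0.0684 without and 0.0192 with it, edgeR). Histone genes of a cluster are near-identical copies, so their single values are uncertain. Without any 1 of the 6 libraries except tau vector replicate 2 none of the list passed, and the median lay between 0.80 and 1.38. Genes of the cell cycle, 33 tested, gave no call, with a median of 0.40. Enzymes that add or remove histone acetyl groups, 32 tested, gave no call either, with a median of -0.03.

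None of the listed genes of lipid synthesis from acetyl-CoA passed. Off these lists, the lipid enzymes Hacd4, Scd4 and Acsl6 were among the called genes. Hacd4, an enzyme of fatty acid elongation, rose from 5.15 to 10.6 CPM (log2 1.04 ± 0.19, adjusted p 0.0331, edgeR). Of 19 genes of fatty acid synthesis 0 passed, and the median log2 fold change was 0.15. At an unadjusted p under 0.05, 9 were higher and 0 lower (10.6% and 9.81% of all genes tested). Fasn, fatty acid synthase, was at 376, 380 and 443 CPM with vector and at 623, 531 and 626 CPM with upACSS2 (log2 0.57 ± 0.12, adjusted p 0.0521, edgeR). Acaca, which makes the malonyl-CoA that Fasn uses, was at 57.9, 59.5 and 66.1 CPM with vector and at 96.5, 76.0 and 95.1 CPM with upACSS2 (log2 0.54 ± 0.12, adjusted p 0.0552, edgeR). Neither gene's groups overlapped.

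With the replicate block 4 of the 19 passed, all higher (1.47% of all genes tested were called higher with the block). They were Fasn (adjusted p 0.0146), Acaca (0.0121), the desaturase Scd1 (0.0167) and the malic enzyme Me1 (0.0458, edgeR). Of 24 genes of cholesterol synthesis 0 passed and 22 were above 0 (50.2% of all genes tested were), with a median of 0.33. With the block 4 of the 24 were called higher, beside the same 1.47% of all genes. Pmvk, Sc5d and Nsdhl, enzymes of this pathway, were among them (adjusted p 0.0121, 0.0146 and 0.0174, edgeR). Of 23 other genes of acetyl-CoA supply none passed and 17 were above 0 (50.2% of all genes tested were), with a median of 0.20. At an unadjusted p under 0.05 (edgeR), 9 of the 23 were higher and 1 lower (10.6% and 9.81% of all genes tested). Among the 23, Pdk2, which inhibits pyruvate dehydrogenase, had the smallest p and, unlike most of the list, was lower. It was at 98.9, 82.7 and 114 CPM with vector and 66.6, 70.7 and 70.0 CPM with upACSS2 (adjusted p 0.0573, and 0.0458 with the block, edgeR).

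Ddit3 (CHOP), a transcription factor induced by stress of the endoplasmic reticulum and by the integrated stress response, fell. It was at 50.5, 55.9 and 57.7 CPM with vector and at 25.7, 27.1 and 25.3 CPM with upACSS2. All upACSS2 libraries lay below all vector libraries, and the log2 fold change was -1.07 ± 0.19 (adjusted p 0.0304, edgeR). It was the only one of 31 stress response genes to pass, and the list had a median of -0.14. At an unadjusted p under 0.05, 7 were lower and 2 higher (9.81% and 10.6% of all genes tested).

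Close to Ddit3 in the pathway, Herpud1, a ubiquitin-like protein of endoplasmic reticulum degradation, was at 58.8, 55.9 and 67.1 against 49.97, 48.3 and 44.6 CPM (adjusted p 0.0695, edgeR). Atf4, the factor upstream of Ddit3, had a log2 fold change of 0.00. Trib3 and Chac1, targets of this branch, had log2 fold changes of -0.90 and -0.50 with adjusted p of 0.177 and 0.121 (edgeR). Gsto1, a glutathione transferase, also fell, from 37.7 ± 0.61 to 24.6 ± 1.77 CPM, the only fall among 22 antioxidant genes. Most of these 22 went the other way, with 16 above 0 and a median log2 fold change of 0.20. At an unadjusted p under 0.05 (edgeR), 9 were higher and 1 lower (10.6% and 9.81% of all genes tested).

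The following genes fell and were taken one by one from the 81 lower genes, not from a list. Stxbp2, a syntaxin-binding protein of secretion, was at 22.7, 19.7 and 25.5 CPM with vector and at 7.21, 10.1 and 10.5 CPM with upACSS2 (log2 -1.28 ± 0.19, adjusted p 0.0192, edgeR). Cyb561, an electron carrier of secretory vesicles, fell from 35.4 ± 12.7 to 14.5 ± 3.26 CPM. Fer1l5, of the ferlin family of membrane fusion proteins, fell from 24.6 to 14.1 CPM, and Cpne5, a calcium-dependent phospholipid-binding copine, from 23.2 to 13.2 CPM.

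Cavin2, a coat protein of caveolae, was at 4.79, 6.28 and 10.5 CPM with vector and at 1.28, 1.85 and 2.26 CPM with upACSS2, 4.01 times as high with vector (adjusted p 0.0285, edgeR). Deptor, an inhibitor of mTOR, fell from 9.88 to 4.57 CPM. The long noncoding RNA Snhg11 was at 102, 89.1 and 96.0 CPM with vector and at 45.4, 55.2 and 41.2 CPM with upACSS2 (log2 -1.01 ± 0.14, adjusted p 0.0192, edgeR). Snhg11 is on a list of 5 tested genes used as signs of RNA quality, of which it alone passed. Without overlap, 2 of the 5 were higher and 2 lower (12.4% and 12.3% of all genes tested). The lower ones were Snhg11 and the noncoding RNA Meg3 (log2 -0.41). The part of RNA quality in the fall of Snhg11 was not tested. Amy1 fell as well, but its near-identical copies make its value uncertain. Of the 81 lower genes 11 were long noncoding RNAs in RefSeq and of the 58 higher genes 3, beside 698 of 14878 tested genes with an entry.

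None of 20 astrocyte markers passed. Of these, 19 were above 0 (50.2% of all genes tested were), with a median log2 fold change of 0.65. Higher without overlap were 15 of the 20 (12.4% of all genes tested were). Their summed level was 5800 to 8502 CPM with vector and 12220 to 13220 CPM with upACSS2. Gja1, the gap junction protein connexin 43, was at 74.1, 79.4 and 46.5 CPM with vector and 119.8, 144.4 and 118.7 CPM with upACSS2 (log2 0.94, adjusted p 0.0562, edgeR). Apoe, the lipid carrier of astrocytes, was at 2142, 1960 and 1621 against 2670, 2909 and 2659 CPM (adjusted p 0.0569, edgeR), and these 2 genes passed with the block (adjusted p 0.0455 and 0.0427). For Gfap the adjusted p was 0.1 (log2 1.36 ± 0.40, edgeR), and vector replicate 3 was the lowest library. Without that library the median of the list was 0.45.

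Of 25 genes of reactive astrocytes tested 1 rose, Serpina3g, a serine protease inhibitor (0.395% of all genes tested were called higher). Serpina3g was at 1.16, 0.38 and 0.78 CPM with vector and 4.76, 2.37 and 5.52 CPM with upACSS2 (adjusted p 0.0425, edgeR). The median of that list was 0.87, with 24 of 25 above 0 (50.2% of all genes tested were). Cxcl5, a chemokine, rose from 0.38 to 1.28 CPM, the only one of 19 inflammatory genes tested to pass. Of 16 oligodendrocyte lineage genes none passed. Mobp, a myelin protein, was at 1.37, 0.27 and 0.05 CPM with vector and 10.8, 5.12 and 8.04 CPM with upACSS2 (adjusted p 0.0754, and 0.037 with the block, edgeR). The part of astrocytes in the changes of the other lists was not tested. The pan-neuronal sum was 7603 to 9271 CPM with vector and 8812 to 10090 CPM with upACSS2 and overlapped.

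Map1a, a microtubule-associated protein, rose from 651 ± 55.6 to 872 ± 72.8 CPM (log2 0.42 ± 0.08, adjusted p 0.0425, edgeR), the only one of 31 tau, microtubule and tau kinase genes to pass. None of 28 genes of Alzheimer risk and amyloid, 46 of the respiratory chain, 32 of glycolysis, 36 of lysosome and autophagy and 73 cytosolic ribosomal proteins passed. Their medians were 0.02, 0.01, 0.13, 0.03 and -0.07, beside 0.00 over all genes tested. At an unadjusted p under 0.05, there were 0 of the 73 ribosomal proteins in either direction (10.6% of all genes tested were higher and 9.81% lower).

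**Figure D4:**
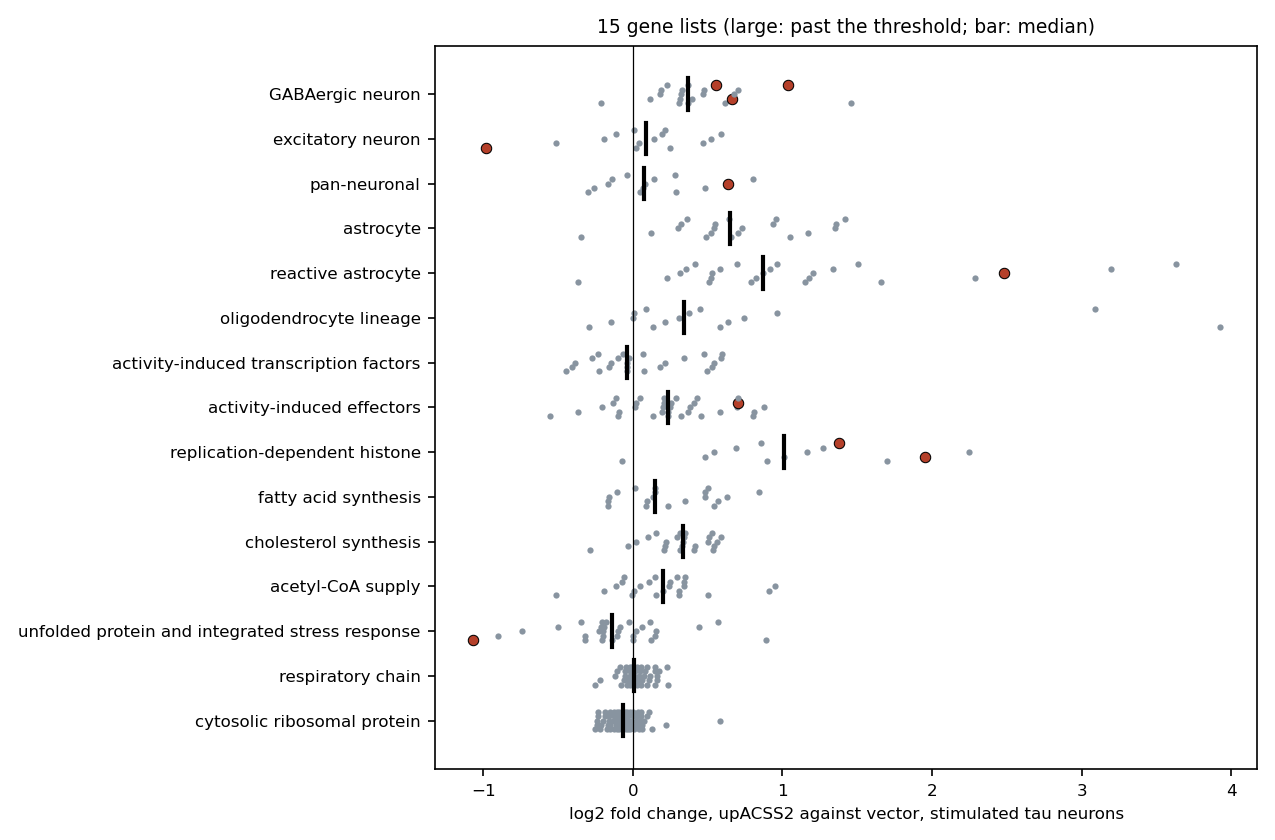
Log2 fold change of upACSS2 against vector in stimulated tau neurons (x axis) for the tested members of 15 gene lists (y axis), Acss2 left out. Small grey points are members, large red points those past the threshold and black bars the list medians. The histone and both astrocyte lists have the highest medians, 1.01, 0.65 and 0.87, and the ribosomal list lies near 0.

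The same virus contrast in stimulated neurons given PBS called 31 of 14939 genes (0.208%, edgeR), 14 higher (0.0937%) and 17 lower (0.114%). Of the 140 genes called in tau 9 were called in PBS too (6.43% of the 140 and 29% of the 31), all in the same direction. Apart from Acss2, the 58 higher genes had a median log2 fold change of 0.19 in PBS and the 81 lower genes one of -0.19, against 0.81 and -0.86 in tau, where they were chosen. Of these 139 genes 104 had the same sign in PBS (74.8%, beside 55.2% of all genes).

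Among the 9 were Nmbr (log2 1.18 in tau and 1.23 in PBS), Rxfp3, the receptor of relaxin 3 (0.69 and 0.90), Fer1l5 (-0.81 and -0.80) and Ovca2, a serine hydrolase (-0.91 and -0.68). In PBS neurons Fer1l5 was at 21.0, 22.2 and 21.3 CPM with vector and 11.6, 11.9 and 13.5 CPM with upACSS2.

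Whether the effect in tau differed from that in PBS was tested by the interaction of virus and tau. No gene passed at an adjusted p under 0.05 (edgeR), with 2135 at an unadjusted p under 0.05, 129 called by DESeq2 and 166 (1.11%) with the replicate block, 113 higher (0.756%) and 53 lower (0.355%), a fit whose numbers did not pair the PBS libraries. Most of the genes called in tau had their interaction in the same direction, 55 of 58 higher and 79 of 81 lower, a description only, since the tau contrast chose them. Ddit3 was at 34.7, 44.7 and 35.5 CPM with vector and at 37.4, 67.5 and 41.3 CPM with upACSS2 in PBS neurons, where its groups overlapped (interaction log2 -1.42 ± 0.26, adjusted p 0.205, and 0.0167 with the block, edgeR). St18 was at 62.5, 46.7 and 66.2 CPM with vector and 52.8, 42.8 and 68.6 CPM with upACSS2 in PBS (interaction log2 1.65 ± 0.30, adjusted p 0.205, and 0.0281 with the block, edgeR). Plk2 in PBS was at 475, 390 and 478 against 426, 376 and 496 CPM, and Fasn at 448, 422 and 469 against 445, 335 and 468 CPM. The interaction of Plk2 and Fasn had an adjusted p of 0.233 for both, and 0.0386 for both with the block (edgeR). Nos1, H2bc4 and Stxbp2 moved in PBS in the same direction as in tau, without overlap and without passing. Their log2 fold changes in PBS were 0.39, 0.72 and -0.72 (adjusted p 0.152, 0.169 and 0.12, edgeR). Of the 21 GABAergic markers 18 were above 0 in PBS (50.5% of all genes tested were), with a median of 0.25.

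The tau vector libraries also enter the contrast of tau with PBS in vector neurons. They are added there and subtracted in the virus contrast, so any deviation of theirs moves the 2 values in opposite directions. The values are therefore given side by side only. For tau against PBS with vector, the log2 differences were -1.42 for St18, -0.73 for Nos1, -0.64 for Sst, -0.50 for Plk2, -0.96 for H2bc4 and -1.70 for Gfap. For upACSS2 against vector in tau they were 1.56, 1.04, 0.66, 0.70, 1.38 and 1.36. For Ddit3 and Snhg11 they were 0.51 and 0.47 for tau and -1.07 and -1.01 for upACSS2. Npy2r and Vegfd had the same sign in both, at 0.24 and 0.28 for tau and 1.67 and 1.57 for upACSS2.

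In unstimulated tau neurons of day 21 the virus contrast called 528 of 14863 genes (3.55%, edgeR), 205 higher (1.38%) and 323 lower (2.17%). Of the 140 genes called in stimulated tau neurons 138 were tested there, all 138 with the same sign, and 78 were called (55.7% of the 140 and 14.8% of the 528). Over all 14664 genes tested in both tables except Acss2 the signs matched in 78.8%, and the log2 fold changes correlated across genes with Pearson's r of 0.773 and Spearman's rho of 0.739. Genes are not independent replicates. The labels do not say whether stimulated and unstimulated libraries of a number came from the same cultures. Deviations of same-numbered libraries of the tables correlated at -0.0851, 0.633 and 0.173 for vector replicates 1, 2 and 3 and at 0.099, 0.272 and 0.196 for upACSS2, so the tables may not be independent.

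Ddit3 was at 60.3, 50.9 and 53.8 CPM with vector and at 24.9, 28.6 and 22.8 CPM with upACSS2 in unstimulated tau neurons (log2 -1.11, adjusted p 0.00399, edgeR). Plk2 was at 73.8, 63.5 and 88.0 against 137, 140 and 106 CPM there (log2 0.77, adjusted p 0.00119, edgeR), at lower levels than after stimulation but without overlap. Nos1 was at 31.4, 30.8 and 49.7 against 73.8, 53.4 and 81.6 CPM (log2 0.90, adjusted p 0.0231, edgeR). Sst, at 124, 157 and 116 against 160, 159 and 213 CPM, did not pass there (log2 0.42, adjusted p 0.112, edgeR).

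**Figure D5:**
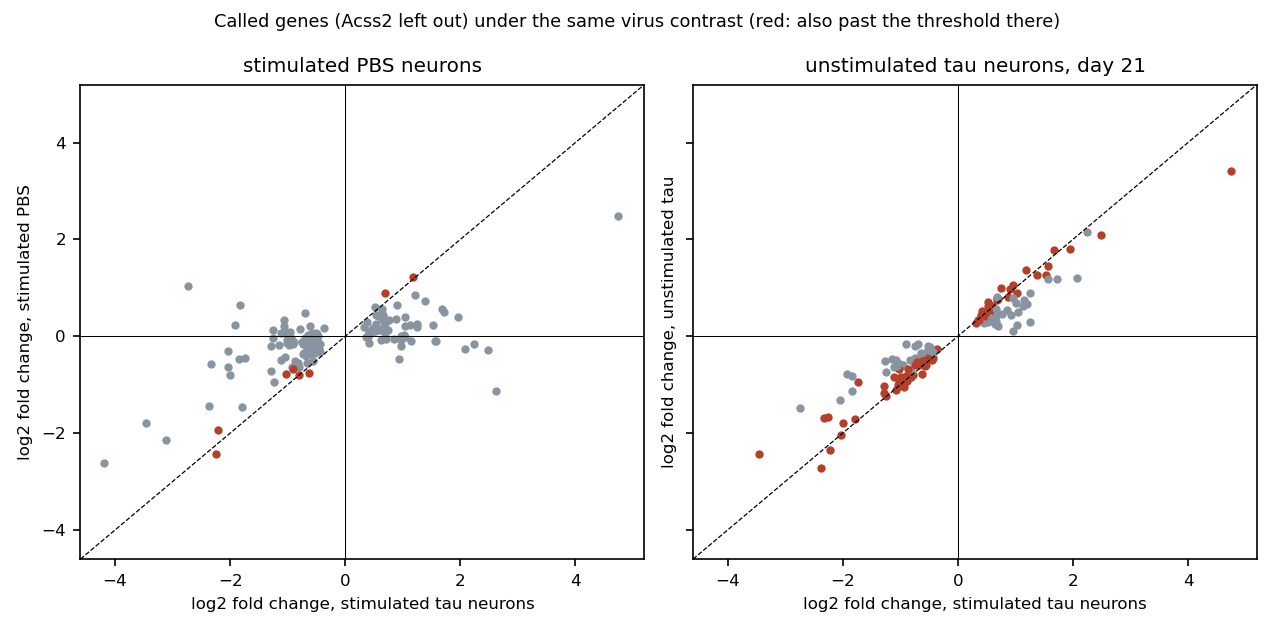
Log2 fold change of upACSS2 against vector for the genes called in stimulated tau neurons except Acss2 (x axes), against that in stimulated PBS neurons (left y axis) and in unstimulated tau neurons (right y axis). Red points passed the threshold in the other comparison too, and dashed lines mark equal values. On the right all points lie in the quadrants of equal sign, and on the left 104 of 139 do.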

How the data were processed

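Total RNA of primary hippocampal neurons was sequenced. The deposited tables hold whole-number counts, not normalized by the authors, with genes as symbols and libraries as columns. The submitters' processing notes name STAR, HTSeq, featureCounts, DESeq2 and mm10, with no version, and the strand setting is not given in the sources used here. Groups came from the sample titles. Counts of all 12 stimulated libraries entered 1 fit of edgeR 4.0.16 (R 4.3.3), with TMM scaling, filterByExpr by group (14939 of 25239 genes), the quasi-likelihood F test and Benjamini-Hochberg adjustment over all genes tested at 0.05, two-sided. The unstimulated table was fitted separately on its own libraries. CPM use TMM-scaled library sizes, and log2 CPM a prior count of 2. The edgeR step was tested on simulated data.

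Named genes were Acss2, the 12 highest and 12 lowest fold changes and the 10 smallest p among genes past 0.05 that had non-overlapping groups, a mean log2 CPM from 1 upward and no predicted symbol, and of each list members past 0.05, the 2 smallest p and, for cell types, the highest level; others named were chosen after their values were seen. The members and lists were chosen with earlier results of these data known. Same-numbered tau libraries correlated in their deviations from group means at 0.111 to 0.359 (other numbers -0.363 to 0.0534). Each was over 0.1, which was taken as pairing, and the labels give no reason for it. This cut is loose, since PBS vector replicate 1 and PBS upACSS2 replicate 3 reached 0.234. The pairing of the tau libraries of replicate 1, at 0.111, is thus uncertain. Libraries of a group differed by more than sampling noise in all 12 pairs (chi-square per gene 5.676 or more). Alternatives were DESeq2 1.42.0, RLE factors, no filter, only the groups compared, the replicate block and each library left out, with total counts and thinned counts added after seeing the data. Gene positions and promoters are from RefSeq on GRCm38.p6, which matched 106 of the 140 called genes to a promoter. Some results are not reported here.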

Additional observations from a re-analysis of the deposited data

How the results depend on the processing

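Genes called in tau neurons numbered 140, the same with RLE factors, 122 with counts thinned to the smallest total of 18804544 (chosen after seeing the data), 220 without the filter, 21 with only the groups compared, 946 with only the groups compared and the replicate block, 399 with the replicate block, 961 with DESeq2, 251 by total counts (chosen after seeing the data) and 1 to 460 with a library left out. Of the 140, 18 passed with only the groups compared, 136 without the filter and 140 with DESeq2. In PBS neurons 31 genes became 424 with DESeq2, 51 without the filter, 2 with only the groups compared, 1 with the replicate block as well, 280 with the replicate block and 1 to 74 with a library left out. The interaction, with 0, had 129 with DESeq2, 166 with the replicate block and 0 in every fit with a library left out. In unstimulated tau neurons 528 became 883 with DESeq2, 1 with only the groups compared, 1 with the block as well, and 104 to 642 with a library left out. The cause was not tested. By correlations over 0.1, a cut that some differently numbered libraries also passed, the numbers pair the tau libraries (vector with upACSS2) and the vector libraries (tau with PBS, 0.123 to 0.326). They do not pair the PBS libraries (-0.111 to 0.145) or the upACSS2 libraries (-0.115 to 0.156). The pairing of the unstimulated libraries with each other was not checked. The log2 fold change of Acss2 stayed between 6.30 and 6.59. Olig1 alone of the 101 named genes other than Acss2 changed sign, to -0.11 without tau vector replicate 3, within a range of -0.11 to 0.55 over libraries left out. Depth limits genes of few counts, such as those under 1 CPM.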

Other observations

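Atp2c2, a calcium and manganese pump of the Golgi, was among the called genes of low level and was picked after its values were seen. Over the 3 libraries of a group it had 2 counts with vector and 75 with upACSS2 in stimulated tau neurons, 29.3 times as many per read (exact 95% interval 7.84 to 247, counting error only). In PBS neurons it was at 0.05 to 0.08 CPM with vector and 0.24 to 0.41 CPM with upACSS2, and in unstimulated tau neurons at 0.04 to 0.10 and 0.35 to 1.13 CPM. The groups did not overlap in any of these 3 comparisons.

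Also picked after their values were seen, a pair of low-level genes were lower in all 3 comparisons. Lta, the cytokine lymphotoxin alpha, had log2 fold changes of -2.37, -1.44 and -2.71 in stimulated tau, stimulated PBS and unstimulated tau neurons, with adjusted p of 0.0192, 0.0865 and 0.00157 (edgeR). Dnah10, an axonemal dynein heavy chain, had -2.25, -2.43 and -1.67, with adjusted p of 0.0304, 0.0479 and 0.0234 (edgeR).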
